A study of Mus musculus with 38 samples.

Results

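The genes described here take up glucose, break it down to pyruvate and lactate, steer pyruvate towards or away from the mitochondrion, or respond to low oxygen. They are the 38 named genes of this kind among the 24028 genes of the deposited count table, found through their Entrez Gene numbers, and all 38 passed the filter on low counts, which left 13650 genes. The study sequenced polyA RNA of naive CD4 T cells from 5 mouse genotypes, either freshly isolated or after 24 h of stimulation, in 38 libraries. Each library came from the pooled lymph nodes and spleen of 1 mouse. Stimulated cells were kept for 24 h on plates coated with anti-CD3 (0.5 µg/ml) and anti-CD28 (0.2 µg/ml) in medium with 50 U/ml of interleukin-2, so the 24 h libraries differ from the naive ones by culture and cytokine as well as by receptor stimulation, and no unstimulated culture is among the groups.

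The wt group is wild type. The group labelled CD28-/- lacks, per its label, the costimulatory receptor CD28. In T1792delta/delta mice, a Cre recombinase driven by Cd4 sequences deletes a floxed miR-17∼92 cluster, and in T1792tg/tg mice the same Cre removes a loxP-flanked stop and so opens, under a CAG promoter, a copy of the cluster placed at Rosa26. The rescue group carries the CD28-/- alleles, the Cre and the transgene together. Cd4-driven Cre is active from thymic development onwards in CD4 and CD8 lineage T cells, and no group carries Cre alone. Each group held 4 libraries in the naive and 4 in the 24 h state, except rescue with 3 and 3. Where comparisons share a control group (wt for 3 genotypes, the libraries labelled CD28-/- for rescue), they are not independent of each other.

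Glycolysis splits glucose into pyruvate in a chain of cytosolic enzymes, and lactate dehydrogenase turns pyruvate into lactate, which monocarboxylate transporters export. Pyruvate instead enters the mitochondrion through the mitochondrial pyruvate carrier and is oxidised by pyruvate dehydrogenase, which pyruvate dehydrogenase kinases switch off. Activated T cells are known to raise glucose uptake and lactate output as they leave quiescence, and CD28 signalling is known to promote this. The transcription factor HIF-1α, whose stability is set by the prolyl hydroxylases encoded by Egln1 and Egln3, induces many glycolytic genes together with Bnip3, Ankrd37 and the collagen prolyl hydroxylases P4ha1 and P4ha2.

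HIF dimers are known to bind DNA with the core letters ACGTG, and MYC and related factors bind CACGTG, which holds that core. Both were searched on both strands in the 300 bases from 250 before to 50 after each start site (RefSeq, GRCm38.p6), and each CACGTG is also counted as ACGTG. At least 1 window was listed for 36 of the 38 members. ACGTG was present in a window of 23 of these 36 genes (63.9%), compared with 29.0% of 10744 tested genes and 21.8% of all 27025 genes of the promoter table. A gene can have several windows. Counted by window, ACGTG was present in 26 of 51 (51.0%), compared with 25.2% of 13599 windows of tested genes. CACGTG was present for 7 of 36 (19.4%), compared with 11.6% of the tested genes. The matches describe letters in a window and not bound sites. The 4 promoters below are shown because they belong to a lactate enzyme, a lactate exporter and to hypoxia genes that carry results further on, with ACGTG on either strand in capitals.
Ldha (chr7:46845554-46845853, plus strand): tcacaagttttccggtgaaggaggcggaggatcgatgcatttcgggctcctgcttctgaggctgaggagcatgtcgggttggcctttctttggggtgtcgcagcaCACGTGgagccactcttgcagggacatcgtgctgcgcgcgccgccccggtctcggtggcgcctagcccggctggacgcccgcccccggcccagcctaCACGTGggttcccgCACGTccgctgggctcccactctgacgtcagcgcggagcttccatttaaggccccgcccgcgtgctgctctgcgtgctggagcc
Slc16a3 (chr11:120948817-120949116, plus strand): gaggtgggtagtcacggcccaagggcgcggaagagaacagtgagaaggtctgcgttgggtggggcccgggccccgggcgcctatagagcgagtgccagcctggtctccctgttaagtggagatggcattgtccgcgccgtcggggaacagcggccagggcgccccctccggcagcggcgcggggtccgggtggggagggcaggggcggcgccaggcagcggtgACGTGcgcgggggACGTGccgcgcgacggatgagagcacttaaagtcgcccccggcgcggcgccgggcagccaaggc
Bnip3 (chr7:138909457-138909756, minus strand): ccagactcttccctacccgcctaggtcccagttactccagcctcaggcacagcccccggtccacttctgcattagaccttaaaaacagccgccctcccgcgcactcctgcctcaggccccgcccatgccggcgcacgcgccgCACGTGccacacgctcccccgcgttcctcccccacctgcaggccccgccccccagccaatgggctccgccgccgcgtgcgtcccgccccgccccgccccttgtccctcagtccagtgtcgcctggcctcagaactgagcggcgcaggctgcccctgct
P4ha2 (chr11:54100674-54100973, plus strand): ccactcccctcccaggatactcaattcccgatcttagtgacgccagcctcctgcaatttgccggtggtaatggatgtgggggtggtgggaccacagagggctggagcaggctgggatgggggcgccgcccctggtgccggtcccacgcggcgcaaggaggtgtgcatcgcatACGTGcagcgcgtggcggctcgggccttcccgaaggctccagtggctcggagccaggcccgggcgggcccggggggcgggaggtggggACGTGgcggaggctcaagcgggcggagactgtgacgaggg
The Ldha window shown held 5 matches, counting both strands, of which 2 pairs overlap in a CACGTG, and another listed Ldha window held 0. The 2 matches of Bnip3 overlap in 1 CACGTG, whereas Slc16a3 and P4ha2 held 2 separate matches each. No ACGTG was found in the single window of Tbc1d4, while Pdk2 held 2 matches in 1 window and 0 in another, Hif1a 3, Hk2 2 and Egln3 1. Both matches of Pdk2 and 2 of the 3 of Hif1a likewise overlap in 1 CACGTG.

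Library totals ranged from 19427291 to 24982429 counts in the naive state and from 22267060 to 28020721 counts at 24 h. Cd4 and Cd3e, which define the labelled cell type, were high in every group (848 to 1130 CPM and 340.2 to 424 CPM in naive wt, where CPM is counts per 1000000 counts of the library after scaling of its size). Cd28 does not check the genotype label: it lay at 551 to 846 CPM in the naive libraries labelled CD28-/- and at 716 to 926 CPM in naive wt, and at 24 h it was higher in the former (506 to 598 against 292 to 377 CPM), so those libraries are called by their label throughout. Counts over the Mir17 hairpin were 5.78 to 7.85 CPM in naive T1792tg/tg, 0.206 to 0.441 CPM in naive wt and 0 in all 4 T1792delta/delta libraries at 24 h. Markers of B cells summed to 188 to 388 CPM in naive wt and 28.3 to 72.9 CPM in 24 h wt libraries, and those of myeloid cells to 161 to 213 and 39.2 to 45.5 CPM. Memory T cell markers at 24 h summed to 316 to 338 CPM in the libraries labelled CD28-/-, 539 to 634 CPM in wt and 880.4 to 935 CPM in T1792tg/tg. Their part in the results was not tested. By Xist and Y-linked genes all libraries labelled CD28-/- and all rescue libraries were female, whereas each wt group held 3 female libraries and 1 male, each T1792tg/tg group 1 and 3 and each T1792delta/delta group 2 and 2. In bulk RNA, a change in the share of cells that express a gene and a change of RNA per cell cannot be told apart.

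One library stood apart in these genes. In T1792delta/delta replicate 2 at 24 h, 32 of the 38 members were higher than in the other 3 libraries of the group, compared with 26.1% of all genes that averaged 1 CPM or more, and 9 were over 2-fold above the mean of those 3, compared with 125 of 11020 such genes. The median ratio of the members was 1.52, against 0.98 over all these genes. P4ha2 was highest by this ratio, with 2.96, 20.4, 2.64 and 2.36 CPM in replicates 1 to 4. Egln3 lay at 12.2, 84.2, 13.2 and 13.2 CPM and Bnip3, a mitophagy receptor, at 18.5, 92.9, 12.0 and 13.2 CPM. The same library held 255 CPM of Slc2a3, a high-affinity glucose transporter, compared with 41.1 to 47.9 CPM in the other 3. The remaining members over 2-fold above were Ppp1r3b at a ratio of 5.18, Aldoc at 4.70, Slc16a3 at 3.20, Ankrd37 at 2.78 and P4ha1 at 2.22. None of the other 18 libraries at 24 h had a member over 2-fold above the mean of the rest of its group. Among 25 other hypoxia-induced genes at this level, 10 were over 2-fold above in this library, with a median ratio of 1.80, including Ndrg1 (7.31) and Vegfa (3.85). Oxygen and cell density of the cultures were not recorded in the sources used here, and their part was not tested. Results that involve T1792delta/delta cells at 24 h are therefore given with and without this library, and since its spread enters the shared variance of every fit, counts for other comparisons are given both ways where they differ by over 1.5 times.

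**Figure D1:**
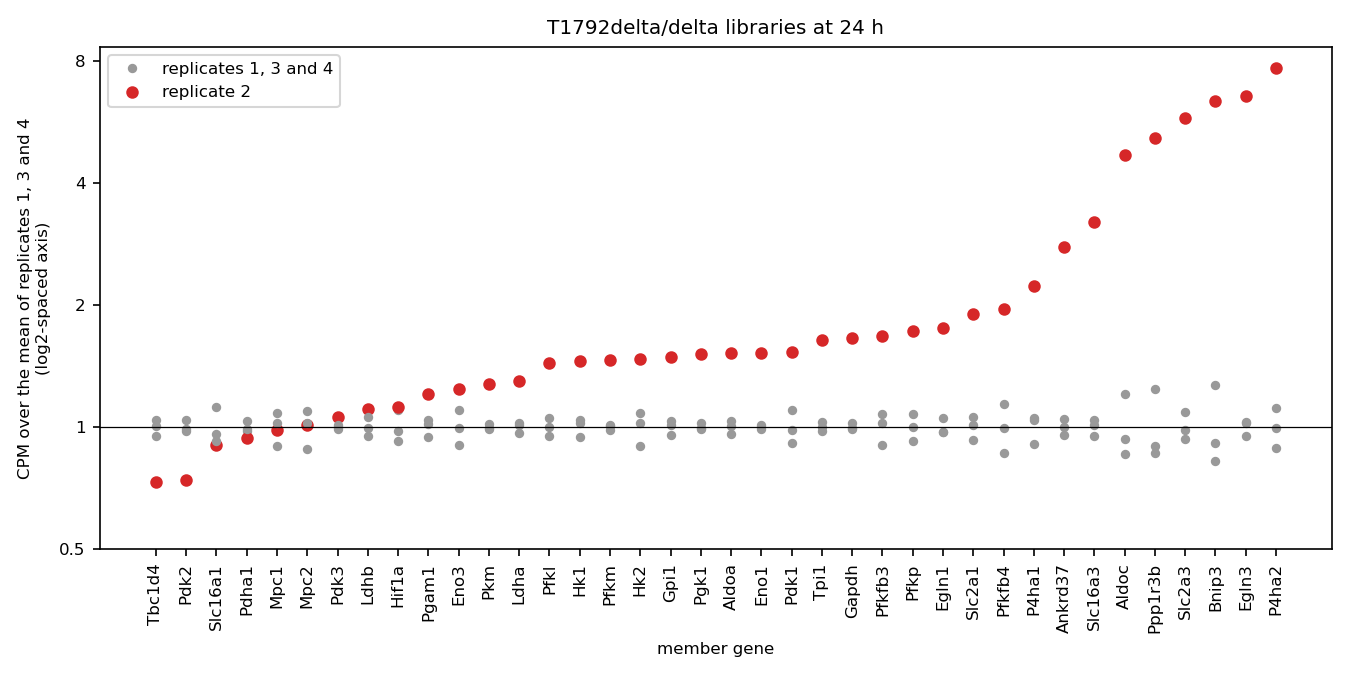
Each member's CPM in the 4 T1792delta/delta libraries at 24 h, divided by the mean of replicates 1, 3 and 4, on a log2-spaced axis, with members ordered by the value of replicate 2 (red). Replicate 2 lies above the grey points of the other 3 libraries for 32 of 38 members and over 2-fold above their mean for 9.

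Stimulation of wt cells raised 26 members and lowered 7, and 5 did not pass the test, against a background of 85.2% of all tested genes called, 41.3% higher and 43.9% lower in this comparison. The median log2 fold change of the members was 0.85 and that of all tested genes -0.06. Since 85.2% of genes changed, the number of members called is near the background, and the members are described by size and direction. All values in this and the following paragraphs are edgeR quasi-likelihood log2 fold changes with their standard errors and Benjamini-Hochberg adjusted p-values over all tested genes.

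**Figure D2:**
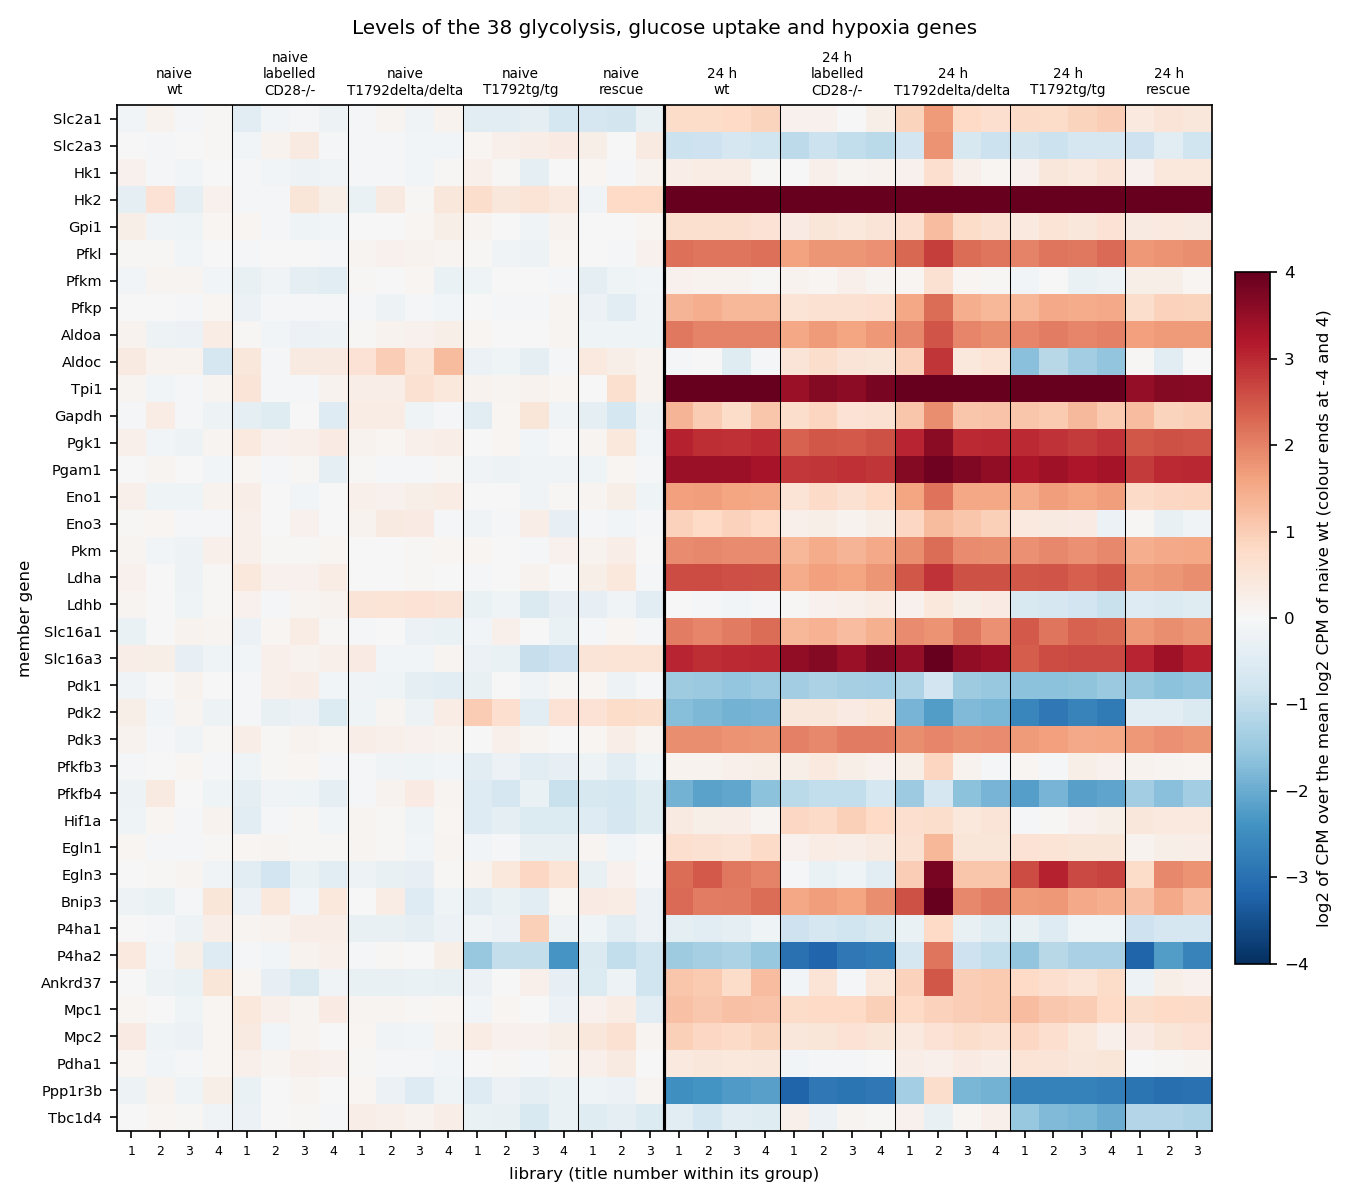
Level of each of the 38 members (rows) in each of the 38 libraries (columns, grouped by state and genotype), as log2 CPM minus the mean log2 CPM of naive wt, with the colour scale ending at -4 and 4. Stimulated libraries lie to the right of the thick line, where Hk2, Tpi1, Pgam1 and Pgk1 are red in every genotype and Ppp1r3b and Pdk1 are blue except in T1792delta/delta replicate 2 for Ppp1r3b.

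At the entry of glucose, Slc2a1, the ubiquitous glucose transporter GLUT1, rose from 67.0, 79.3, 67.6 and 73.9 CPM in the naive wt libraries to 119, 119, 124 and 134 CPM at 24 h, a log2 fold change of 0.79 ± 0.13 SE, adjusted p = 2.2e-06. Slc2a3, which encodes GLUT3, went the other way, from 73.4, 71.6, 75.0 and 76.1 CPM to 40.7, 41.8, 46.2 and 42.7 CPM, -0.79 ± 0.31 SE, adjusted p = 0.019. Neither pair of groups overlapped. Tbc1d4, a Rab GTPase-activating protein that holds glucose transporters inside the cell, fell from 66.1, 69.5, 68.1 and 59.9 CPM to 47.8, 40.4, 49.4 and 46.9 CPM (-0.52 ± 0.10 SE, adjusted p = 1.3e-05).

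The hexokinases trap glucose as its phosphate. Hk2 had the largest increase of the members: 2.40, 4.66, 2.43 and 3.56 CPM in naive cells and 186, 189, 193 and 179.9 CPM at 24 h, 5.83 ± 0.17 SE, adjusted p = 4.4e-26. Hk1, the constitutive form, was at 188, 159, 154 and 163 CPM and then 199.7, 205, 205 and 171 CPM, and these groups overlapped although the gene was called (0.23 ± 0.10 SE, adjusted p = 0.039). That call was lost with DESeq2, with its size factors in edgeR, at a minimum mean of 5 CPM and in 6 of the 8 fits that leave out 1 wt library. Hk2 was the lowest of all members per length in naive wt, at 0.592 ± 0.196 CPM per kb (SD, n = 4), and reached 33.9 ± 1.01 CPM per kb (SD, n = 4) at 24 h, above Hk1 at 25.9 ± 2.19 CPM per kb (SD, n = 4).

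Every enzyme step between glucose phosphate and pyruvate had at least 1 gene that rose. Among the phosphofructokinases, which commit sugar to glycolysis, Pfkl rose by 2.17 ± 0.09 SE, adjusted p = 2.9e-22 and Pfkp by 1.37 ± 0.11 SE, adjusted p = 7.3e-14. The Pfkp values were 127, 130.1, 122 and 137 CPM in naive and 333, 353, 323 and 322 CPM in stimulated libraries, while Pfkm did not pass the test (0.11 ± 0.10 SE, adjusted p = 0.28). The triose phosphate isomerase gene Tpi1 lay between 39.5 and 46.0 CPM in naive and between 859.8 and 884 CPM in stimulated libraries, 4.34 ± 0.15 SE, adjusted p = 2.4e-24. For other enzymes of the chain the log2 fold changes were Gpi1 0.61, Aldoa 2.0, Gapdh 1.05, Pgk1 2.98, Pgam1 3.41, Eno1 1.60, Eno3 0.85 and Pkm 1.89, all called higher and without overlap between the groups. Aldoc, the brain-type aldolase, did not pass the test (-0.19 ± 0.35 SE, adjusted p = 0.62). Gapdh and Eno1 are known to have near-identical copies, and since how reads of such copies were counted is not given, their values are uncertain. Gapdh held 51 to 397 counts per library, and the Eno1 copy Eno1b had 201 to 267 CPM in naive wt against 208 to 272 CPM for Eno1.

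At the lactate end, Ldha, which favours lactate formation, rose from 535, 477, 413 and 500 CPM to 2893, 2944, 2837 and 2788 CPM (2.57 ± 0.09 SE, adjusted p = 1.1e-23) and was the most abundant member per length in both states, at 249 ± 26.6 CPM per kb (SD, n = 4) and 1485 ± 35.2 CPM per kb (SD, n = 4). Ldhb, the heart-type subunit, stayed out of the calls with 35.3, 33.1, 29.1 and 33.6 CPM and 32.0, 31.1, 30.3 and 31.1 CPM (-0.07 ± 0.08 SE, adjusted p = 0.4). Both lactate exporters rose, Slc16a1 (MCT1) by 2.07 ± 0.10 SE, adjusted p = 5.7e-20 and Slc16a3 (MCT4), from 5.29, 5.24, 3.51 and 3.92 to 36.4, 34.1, 35.3 and 36.1 CPM, by 2.98 ± 0.26 SE, adjusted p = 6.1e-13.

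The genes around mitochondrial pyruvate moved in both directions. The carrier subunits Mpc1 and Mpc2 rose by 1.14 and 0.85, with Mpc1 at 21.6, 20.6, 18.3 and 21.4 CPM before and 46.2, 42.7, 46.3 and 44.8 CPM after stimulation. Pdha1, the catalytic subunit of pyruvate dehydrogenase, rose by 0.43 ± 0.06 SE, adjusted p = 2.2e-08. Of the 3 inhibitory kinases, Pdk1 fell from 297, 325, 359 and 319 to 122, 117, 109.8 and 118 CPM (-1.48 ± 0.11 SE, adjusted p = 7.5e-15), Pdk2 fell by 1.83 on the log2 scale, and Pdk3 rose by 1.82 ± 0.06 SE, adjusted p = 4.1e-24. The bifunctional enzymes that set the level of a sugar phosphate activating phosphofructokinase differed too: Pfkfb4 fell from 13.8, 20.4, 16.1 and 14.1 to 4.27, 3.63, 3.78 and 5.13 CPM (-1.94 ± 0.17 SE, adjusted p = 1.9e-12), and Pfkfb3 had 66.3, 69.2, 72.0 and 63.9 and 74.6, 74.5, 77.8 and 79.0 CPM, which did not overlap yet missed the threshold (0.17 ± 0.10 SE, adjusted p = 0.12). Ppp1r3b, a subunit that targets a phosphatase to glycogen, had the largest decrease of the members, -2.33 ± 0.32 SE, adjusted p = 4.5e-08.

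The hypoxia genes did not move as a block. Hif1a rose slightly, from 219, 259.7, 238 and 268 to 314, 292, 294 and 264 CPM (0.24 ± 0.09 SE, adjusted p = 0.01), and its 2 state groups overlapped. The call of Hif1a was lost at a minimum mean of 5 CPM and without naive wt replicate 1. The oxygen sensor Egln3 rose from 6.02, 6.35, 6.57 and 5.54 to 28.8, 33.1, 26.2 and 24.0 CPM (2.19 ± 0.39 SE, adjusted p = 3.4e-06), and Egln1, the main sensor, from 88.8, 80.9, 79.3 and 86.3 to 134, 126, 123 and 141 CPM (0.65 ± 0.11 SE, adjusted p = 1.5e-06). Bnip3 rose from 2.79, 2.64, 3.10 and 4.47 to 15.3, 13.3, 13.4 and 15.0 CPM (2.14 ± 0.40 SE, adjusted p = 8.2e-06), and Ankrd37, an ankyrin repeat protein, from 4.70, 4.12, 3.97 and 6.71 to 10.2, 9.87, 7.92 and 11.3 CPM (1.02 ± 0.24 SE, adjusted p = 0.00024). The collagen hydroxylases were lower: P4ha2 changed by -1.42 ± 0.42 SE, adjusted p = 0.0027, and P4ha1, at 80.8, 77.5, 69.1 and 95.4 and 63.0, 59.9, 61.1 and 70.9 CPM, missed the threshold (-0.34 ± 0.20 SE, adjusted p = 0.11).

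The same comparison in the other genotypes called 24 members higher and 7 lower in the libraries labelled CD28-/- (80.9% of all tested genes called, 39.7% higher and 41.2% lower), 29 and 4 in T1792delta/delta (85.1% of all tested genes called, 41.4% higher and 43.7% lower), 27 and 9 in T1792tg/tg (85.1% of all tested genes called, 41% higher and 44.1% lower), and 23 and 8 in rescue (79.7% of all tested genes called, 38.8% higher and 40.8% lower). Hk2, Tpi1, Pgam1, Pgk1 and Ldha were called higher in all 5 genotypes. Without T1792delta/delta replicate 2 at 24 h, the count in that genotype was 27 higher and 7 lower: Slc2a3, P4ha2 and Ppp1r3b joined the lower genes (-0.67, -0.88 and -1.48), and Aldoc and Pfkm left the calls. That fit changes the variance shared by all genes, so its counts are not set against the shares above.

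Members of a family can replace each other, so the share of each family's reads per kb of deposited gene length was compared over libraries. All 10 families shifted between naive and stimulated wt cells, each with an exact two-sided permutation p of 0.029 (adjusted 0.029 over the 10), the smallest that 4 libraries against 4 allow. Taken as pairs by their replicate numbers, the 4 wt mice gave an exact paired p of 0.125 in each family, the smallest that 4 pairs allow, so these shifts do not pass when paired. All 4 pairs moved in 1 direction in each family. The aldolase shift was small, with Aldoa at 99.57% in naive and 99.91% in stimulated wt cells. The enolase share covers Eno1 and Eno3 only and leaves out the copy Eno1b. Hk1 held 97.4% ± 0.946 (SD, n = 4) of hexokinase in naive cells and 43.2% ± 1.52 (SD, n = 4) at 24 h, where Hk2 held the rest. Among the pyruvate dehydrogenase kinases, Pdk1 went from 78.2% ± 2.50 (SD, n = 4) to 33.9% ± 1.01 (SD, n = 4) and Pdk3 from 15.1% ± 1.89 (SD, n = 4) to 63.9% ± 1.05 (SD, n = 4). Ldha went from 90.8% ± 0.248 (SD, n = 4) to 98.4% ± 0.0420 (SD, n = 4) of lactate dehydrogenase. The Slc2a1 share of the glucose transporters changed from 71.0% ± 1.92 (SD, n = 4) to 88.0% ± 0.685 (SD, n = 4), that of Pfkfb3 in its family from 73.3% ± 3.15 (SD, n = 4) to 92.2% ± 1.02 (SD, n = 4), and that of Egln1 among the prolyl hydroxylases from 91.2% ± 0.960 (SD, n = 4) to 78.0% ± 3.02 (SD, n = 4).

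Cells labelled CD28-/- differed from wt at 24 h in 9 of the 10 families (exact two-sided permutation, adjusted p = 0.032 each), Pdk1 being the exception (adjusted p = 0.057). Hk1 held 62.7% ± 0.858 (SD, n = 4) of hexokinase and Slc16a1 66.0% ± 0.695 (SD, n = 4) of the lactate exporters, compared with 82.9% ± 0.909 (SD, n = 4) in wt. The Egln1 share was 93.6% ± 1.02 (SD, n = 4). In T1792delta/delta cells none of the 10 families passed against wt at 24 h after adjustment (lowest adjusted p = 0.071, 4 of 10 with an exact permutation p of 0.029), and a p above the threshold does not show that the shares were alike. The Slc16a1 share was 75.0, 47.1, 77.4 and 75.4% in replicates 1 to 4, all below wt at 82.1 to 84.1%, so its mean was 68.7% ± 14.4 (SD, n = 4) with and 75.9% ± 1.29 (SD, n = 3) without replicate 2. The Egln1 share was 88.8, 65.6, 87.2 and 87.1%, where replicate 2 lay below and the other 3 above wt at 74.3 to 81.7%, and the Slc2a1 share 88.5, 70.1, 86.9 and 87.7% against 87.2 to 88.8%. Without replicate 2 the means were 87.7% ± 0.957 (SD, n = 3) and 87.7% ± 0.807 (SD, n = 3), and 3 libraries against 4 cannot give an exact p below 0.057.

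**Figure D3:**
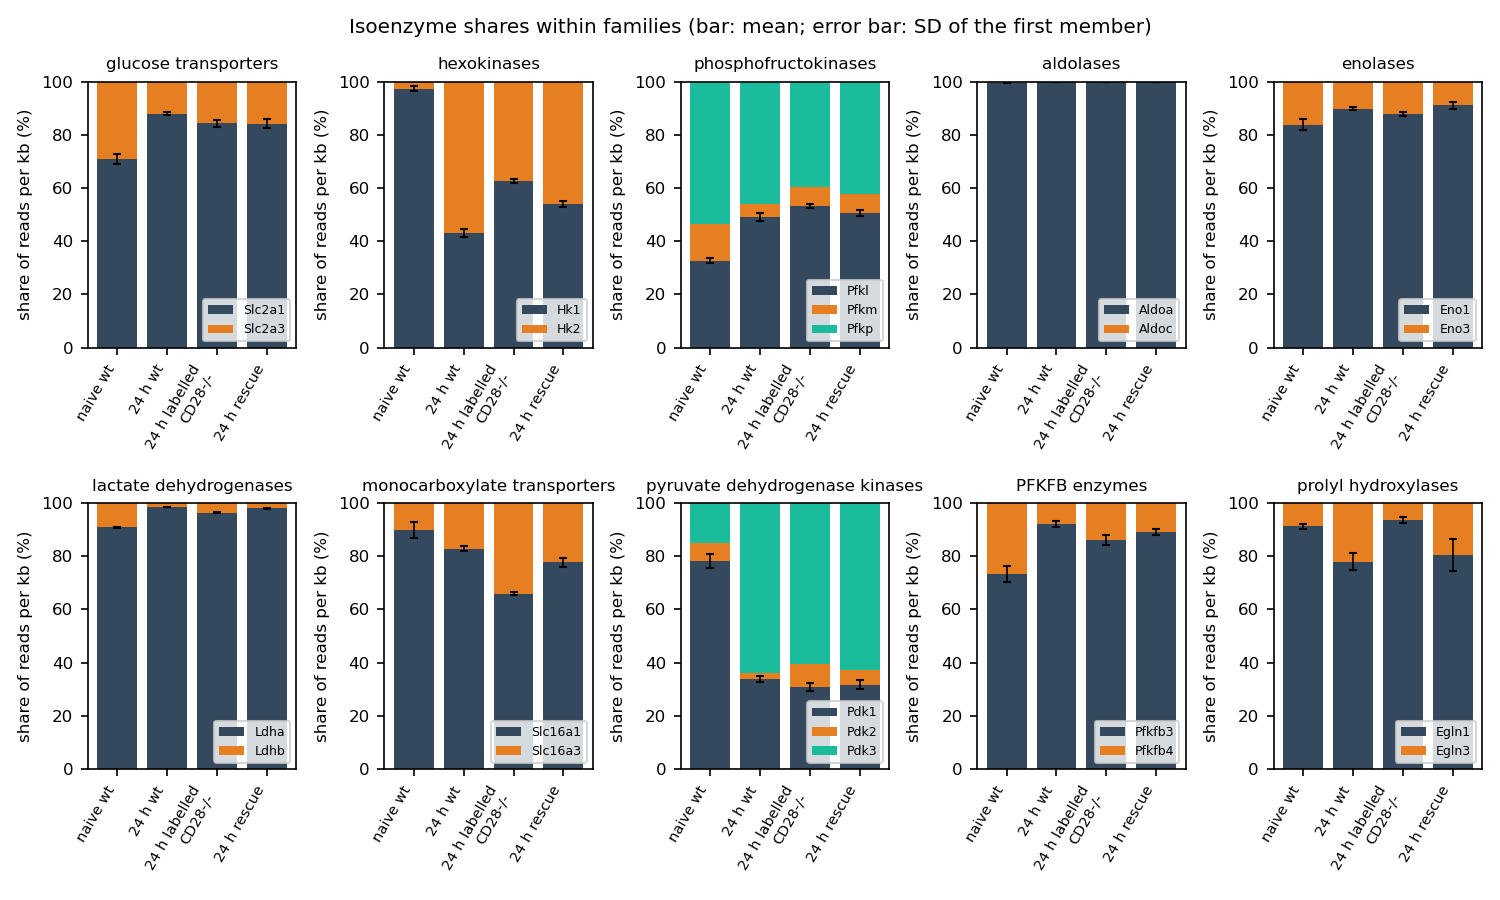
Stacked bars give each isoenzyme's mean share (%) of its family's reads per kb in naive wt, 24 h wt, 24 h labelled CD28-/- and 24 h rescue libraries, with the SD of the first-listed member as error bar (n = 4, 4, 4 and 3). Hk1 falls from 97.4% to 43.2% of hexokinase in wt and is at 62.7% in the libraries labelled CD28-/-, with rescue in between at 53.9%.

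In cells labelled CD28-/-, 20 members were lower than in wt after the same 24 h of stimulation, 7 higher and 11 not called, against a background of 51.5% of genes called in either direction, 27.8% lower and 23.7% higher. The members' median log2 fold change was -0.39, and that of all tested genes -0.03. Of the 38, 33 had groups that did not overlap, compared with 54.1% of all tested genes. Because all libraries labelled CD28-/- were female and wt was mixed, the fit was repeated with a term for sex, which gave the same counts, 7 higher and 20 lower. Without T1792delta/delta replicate 2 in the fit, 8 were higher and 25 lower. Leaving it out changes the variance shared by all genes, so these counts are not set against the 51.5% above. Regulatory T cell markers, some of which activated T cells also express, summed to 752 to 790.3 CPM in the libraries labelled CD28-/- and 976 to 1005 CPM in wt, with 6 of 6 called lower, and memory T cell markers to 316 to 338 and 539 to 634 CPM, with 5 of 8 called lower. Their part was not tested.

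Hk2 was at 72.8, 83.1, 79.8 and 75.5 CPM in the libraries labelled CD28-/- and at 186, 189, 193 and 179.9 CPM in wt, -1.26 ± 0.13 SE, adjusted p = 5.5e-10. Ldha was at 1342, 1492, 1430 and 1633 CPM against 2893, 2944, 2837 and 2788 CPM, -0.96 ± 0.09 SE, adjusted p = 5.6e-11. In both genes every library labelled CD28-/- lay below every wt library. The intermediate enzymes were lower by smaller amounts: the log2 fold changes were Pfkl -0.43, Pfkp -0.77, Aldoa -0.38, Tpi1 -0.71, Pgk1 -0.53, Pgam1 -0.54, Eno1 -0.93, Eno3 -0.65 and Pkm -0.48, all called. Gpi1, Gapdh and Pfkm were not called (Gpi1 -0.18, Gapdh -0.38 and Pfkm 0.02), although Gpi1 and Gapdh were called lower without T1792delta/delta replicate 2 in the fit (adjusted p = 0.041 and 0.037), nor was Hk1 (166, 189.9, 177 and 183 CPM, -0.12).

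Glucose and lactate transport split by gene. Slc2a1 was at 80.2, 80.8, 73.0 and 84.1 CPM, below all wt libraries (-0.64 ± 0.13 SE, adjusted p = 0.00013), and Slc2a3 at 35.9, 41.0, 37.4 and 35.2 CPM was not called (-0.20). Slc16a1 was lower (-0.73 ± 0.10 SE, adjusted p = 9.9e-08), whereas Slc16a3 was higher (0.60 ± 0.22 SE, adjusted p = 0.023), with 52.2, 56.4, 48.2 and 57.5 CPM against 36.4, 34.1, 35.3 and 36.1 CPM. The Slc16a3 call was lost without wt replicate 2 or without replicate 4 of the group labelled CD28-/-. The pyruvate carrier and dehydrogenase genes were lower (Mpc1 -0.33, Mpc2 -0.37 and Pdha1 -0.48), with Mpc1 at 34.3, 35.1, 35.1 and 39.2 CPM.

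The 7 higher members were Slc16a3, Pdk2, Pdk3, Pfkfb4, Ldhb, Tbc1d4 and Hif1a. Pdk2 was at 11.9, 11.9, 10.9 and 11.8 CPM compared with 2.67, 2.53, 2.34 and 2.40 CPM in wt, 2.22 ± 0.18 SE, adjusted p = 2e-12, and Pfkfb4 at 7.53, 7.98, 8.07 and 9.81 CPM (0.99 ± 0.18 SE, adjusted p = 1.5e-05). The stimulation response of Pdk2 was called in opposite directions, with -1.83 in wt and 0.67 ± 0.16 SE, adjusted p = 0.00039 in the libraries labelled CD28-/-, as was that of Pdha1 (0.43 and -0.22). Pdk3, Ldhb and Tbc1d4 were also higher (Pdk3 0.21, Ldhb 0.25 and Tbc1d4 0.55), with Tbc1d4 at 75.1, 55.9, 71.1 and 67.9 CPM. Pdk1 and Pfkfb3 were not called (125, 135, 129 and 128 CPM and 79.7, 88.3, 79.8 and 76.9 CPM, with log2 fold changes of 0.14 and 0.09).

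In the hypoxia group, members were called in both directions. The 25 other hypoxia-induced genes were also split, with 5 higher and 9 lower (23.7% and 27.8% of all tested genes). Hif1a was higher, at 437, 418, 474 and 429.6 CPM, all above wt (0.59 ± 0.09 SE, adjusted p = 4.9e-07). Egln3 had the largest decrease of the members, with 5.86, 5.13, 5.42 and 4.45 CPM in the libraries labelled CD28-/- (-2.43 ± 0.39 SE, adjusted p = 2.8e-06), and Egln1 at 94.1, 103, 99.7 and 108 CPM was lower by less (-0.37 ± 0.11 SE, adjusted p = 0.0039). P4ha2 and Ankrd37 were lower (P4ha2 -1.55 and Ankrd37 -0.81), Ankrd37 at 4.43, 7.03, 4.62 and 6.34 CPM. Bnip3 at 9.29, 10.2, 9.48 and 11.5 CPM and P4ha1 at 45.6, 50.0, 46.2 and 51.5 CPM lay below wt without overlap but were not called (Bnip3 -0.49 and P4ha1 -0.40). They were called once T1792delta/delta replicate 2 was left out of the shared variance (adjusted p = 0.0095 and 0.028).

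The response to stimulation itself differed between the libraries labelled CD28-/- and wt for 21 members, 17 with a lower and 4 with a higher log2 response, against a background of 43.3% of all tested genes called, 20.8% higher and 22.4% lower. Hk2 had an interaction of -1.37 ± 0.24 SE, adjusted p = 2.5e-05 and Ldha of -1.21 ± 0.13 SE, adjusted p = 1.6e-09, while Pdk2 (2.50 ± 0.24 SE, adjusted p = 5.5e-10), Pfkfb4 (1.27), Hif1a (0.72) and Tbc1d4 (0.62) had the higher responses.

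**Figure D4:**
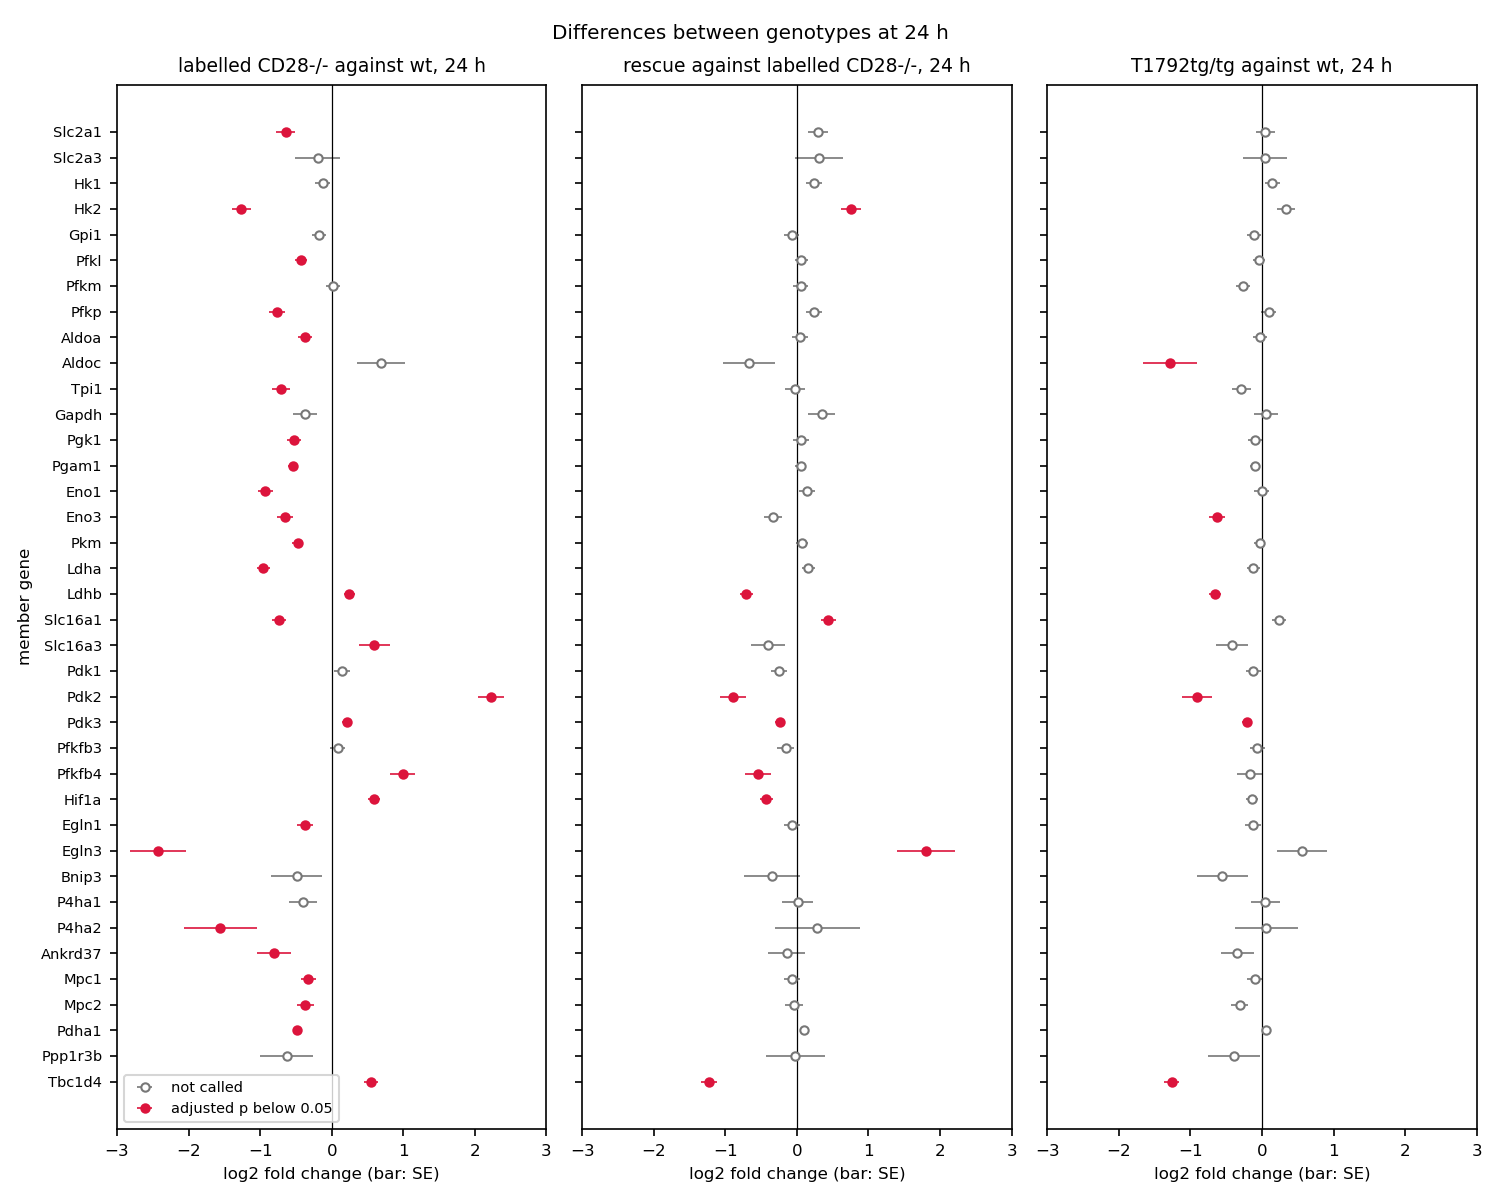
Log2 fold changes at 24 h with standard errors for each member in 3 comparisons: labelled CD28-/- against wt, rescue against labelled CD28-/-, and T1792tg/tg against wt. Filled points passed the threshold, 27, 9 and 6 of 38 in turn. Most glycolytic enzymes lie below 0 in the left panel and near 0 in the other panels, while Tbc1d4 and Pdk2 are above 0 on the left and below 0 in the other panels.

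The rescue group asks whether the miR-17∼92 transgene changes stimulated cells that carry the CD28-/- alleles. At 24 h, 3 members were higher and 6 lower than in the libraries labelled CD28-/- (18.4% of all tested genes called, 9.52% higher and 8.86% lower), and the fit without T1792delta/delta replicate 2 called 6 higher and 9 lower, including all of these 9, with a background of 19.2%. The 6 gained were Slc2a1 0.30, Slc2a3 0.31, Pfkp 0.24, Aldoc -0.67, Eno3 -0.33 and Slc16a3 -0.41. Memory T cell markers summed to 505 to 643 CPM in rescue and 316 to 338 CPM in the libraries labelled CD28-/-, with 7 of 8 called higher, and regulatory T cell markers to 1128 to 1144 and 752 to 790.3 CPM, with 3 of 6 higher and 1 lower. Their part was not tested. Egln3 reached 10.1, 23.4 and 21.1 CPM (1.80 ± 0.41 SE, adjusted p = 0.0015), Hk2 124, 139.9 and 131 CPM (0.76 ± 0.14 SE, adjusted p = 0.00013) and Slc16a1 234 to 253 CPM (0.44 ± 0.10 SE, adjusted p = 0.0024). None of the 3 overlapped with the libraries labelled CD28-/-. In the fit to all libraries the rest of the chain was not called. Ldha lay at 1568, 1639 and 1736 CPM (0.16 ± 0.10 SE, adjusted p = 0.27), and the log2 fold changes of other enzymes were Tpi1 -0.03, Pgk1 0.06, Aldoa 0.04, Pkm 0.08 and Pgam1 0.06.

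The 6 lower members were Tbc1d4 -1.22, Pdk2 -0.89, Ldhb -0.71, Pfkfb4 -0.55, Hif1a -0.43 and Pdk3 -0.24. Tbc1d4 was at 29.2, 29.4 and 28.2 CPM, -1.22 ± 0.11 SE, adjusted p = 6.1e-10, and Hif1a at 336, 325 and 319.5 CPM, -0.43 ± 0.09 SE, adjusted p = 0.0011. All 6 had been higher in the libraries labelled CD28-/- than in wt, but both comparisons use the same CD28-/- libraries. Set against wt, rescue cells had 19 members lower and 1 higher (35.1% of all tested genes called, 17.4% higher and 17.7% lower). Ldha was still lower (-0.80 ± 0.10 SE, adjusted p = 7.2e-08), as were Hk2 (-0.51), Tpi1 (-0.74) and Eno1 (-0.79), and Pdk2 was higher (1.33 ± 0.19 SE, adjusted p = 1.5e-06). Tbc1d4 and Ldhb were below wt (Tbc1d4 -0.67 and Ldhb -0.46), while Hif1a and Slc2a1 were not called (Hif1a 0.17 and Slc2a1 -0.34). The response differed between rescue and the libraries labelled CD28-/- for 4 members (12.8% of all tested genes called, 6.96% higher and 5.84% lower): Slc2a1 0.64, Slc16a1 0.52, Pdk2 -1.83 and Tbc1d4 -0.81. That count was 2 without rescue replicate 2 at 24 h or naive replicate 3 labelled CD28-/-, and 8 without T1792delta/delta replicate 2 at 24 h.

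**Figure D5:**
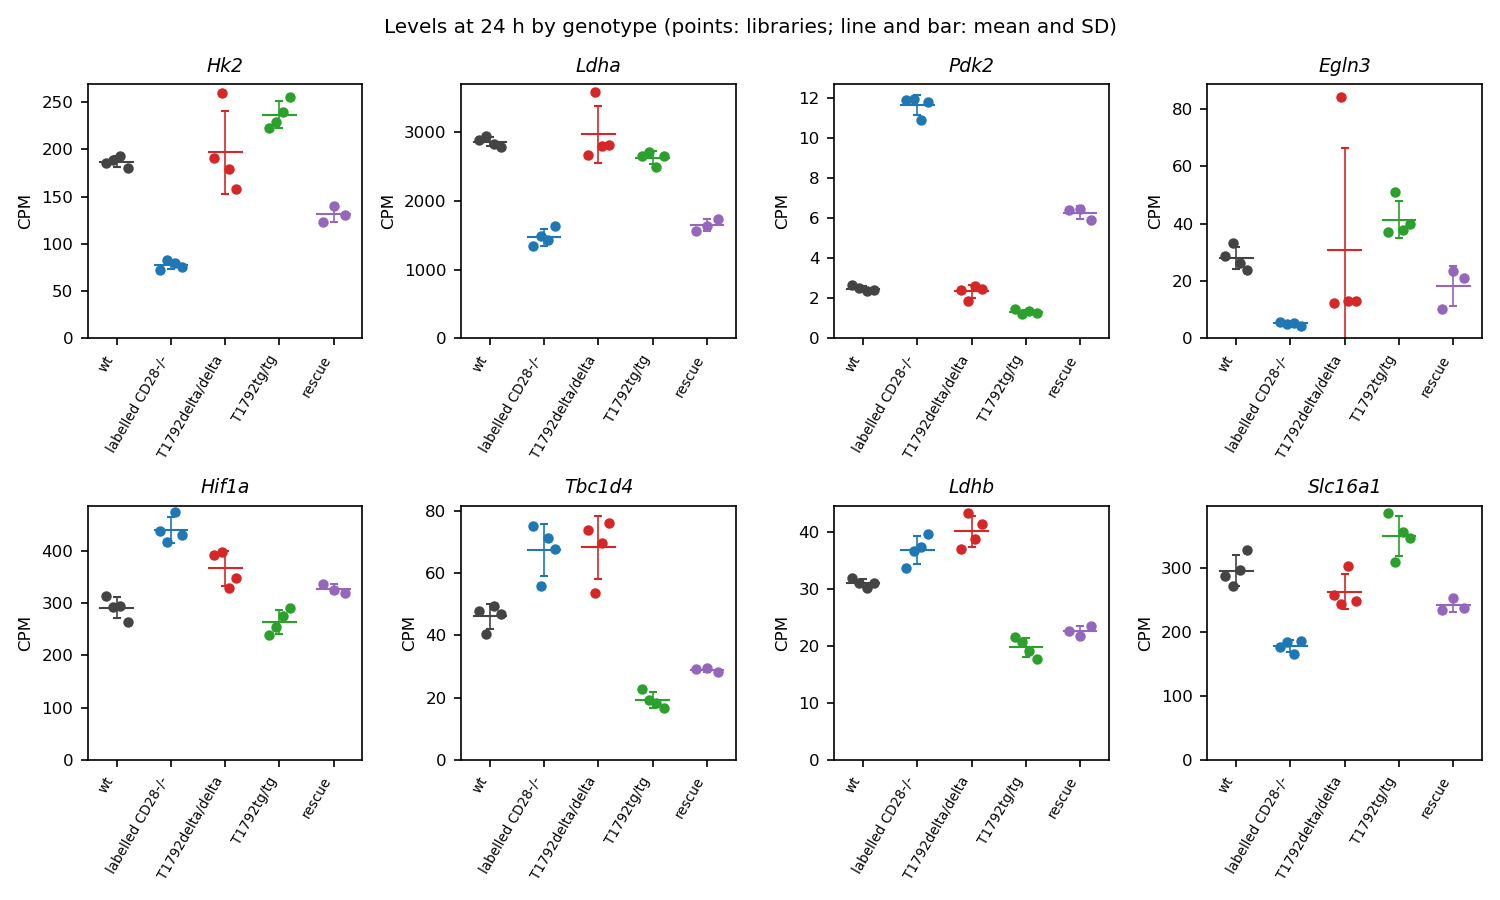
CPM at 24 h of 8 members in each library (points) by genotype, with the mean and SD, on axes that start at 0. Tbc1d4, Ldhb and Pdk2 are lowest in T1792tg/tg, Hk2, Ldha and Slc16a1 are lowest in the libraries labelled CD28-/-, and 1 T1792delta/delta point of Egln3, at 84.2 CPM, is replicate 2.

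With CD28 intact, 6 of 38 members were lower and none higher at 24 h in T1792tg/tg than in wt. Over all tested genes 12.5% were called, 6.1% higher and 6.45% lower. The share of members called in both directions together lies near this background, but all 6 calls were lower. At an unadjusted quasi-likelihood p below 0.05 the count was 11 in both directions together, and DESeq2 also called 0 higher. Tbc1d4 was at 22.8, 19.3, 18.3 and 16.5 CPM against 47.8, 40.4, 49.4 and 46.9 CPM in wt (-1.26 ± 0.10 SE, adjusted p = 1.3e-10). Ldhb was at 21.6, 20.7, 19.2 and 17.7 CPM against 32.0, 31.1, 30.3 and 31.1 CPM (-0.65 ± 0.08 SE, adjusted p = 8.7e-07). In both, the genotypes did not overlap. The other 4 were Aldoc -1.28, Pdk2 -0.91, Eno3 -0.62 and Pdk3 -0.21. Aldoc was low throughout, at 0.626 to 0.930 CPM in T1792tg/tg and 1.44 to 2.0 CPM in wt. Hk2 at 223, 229, 240.1 and 256 CPM and Egln3 at 37.1, 51.2, 37.8 and 39.8 CPM lay above wt without overlap and missed the threshold (Hk2 0.34 and Egln3 0.56). Without T1792delta/delta replicate 2 in the fit, 2 members were higher, Hk2 (adjusted p = 0.038) and Egln3 (adjusted p = 0.015), and 9 lower, with a background of 13.3%. Ldha was not called (-0.12 ± 0.09 SE, adjusted p = 0.42). Memory T cell markers were called higher for 6 of 8 (sums given above) and regulatory T cell markers for 2 of 6 (1214 to 1283 against 976 to 1005 CPM), and their part in these differences was not tested.

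The cluster's microRNAs fall into 4 seed families, shown with the seed (bases 2 to 8) in capitals (RefSeq, GRCm38.p6, all on chromosome 14). They are printed because genes with a matching site in the 3′ untranslated region (UTR) are possible direct targets of the deleted or added cluster.
mmu-miR-17-5p: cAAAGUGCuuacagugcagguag
mmu-miR-20a-5p: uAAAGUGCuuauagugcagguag
mmu-miR-18a-5p: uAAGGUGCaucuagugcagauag
mmu-miR-19a-3p: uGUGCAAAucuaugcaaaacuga
mmu-miR-19b-3p: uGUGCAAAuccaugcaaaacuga
mmu-miR-92a-3p: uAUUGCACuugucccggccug
The DNA complement of a seed was found in the longest annotated 3′ UTR (GENCODE M21) of 12 of the 38 members (31.6%), compared with 34.6% of 12529 tested genes. Sites are shown, with the match in capitals, for the members with one that were called in T1792tg/tg against wt, in rescue against the libraries labelled CD28-/-, or in T1792delta/delta against wt both with and without replicate 2 at 24 h.
Hif1a (chr12:73946007-73946013, plus strand): tttaaaatGCACCTTtttattta
Hif1a (chr12:73946678-73946684, plus strand): ggttttatGCACTTTgtcgctat
Ldhb (chr6:142490289-142490295, minus strand): gtttgatgTTTGCACtaggagct
Egln3 (chr12:54180610-54180616, minus strand): ctgtggtGTGCAATccgctggc
Egln3 (chr12:54180326-54180332, minus strand): tcttattcGCACTTTatgtatgc
Pfkfb3 (chr2:11473691-11473697, minus strand): gtttgtttGCACTTTtccttctt
Slc16a3 (chr11:120959246-120959252, plus strand): ggcagcggGCACCTTggcgggcc
Ppp1r3b (chr8:35386001-35386007, plus strand): atattggaGTGCAATgcgctttc
Ppp1r3b (chr8:35387988-35387994, plus strand): ggggaaatGCACTTTaaaaaaaa
Pgam1 (chr19:41918653-41918659, plus strand): ggagtgatGTGCAATa
In the transcript, the GCACTTT sites of Egln3 and Ppp1r3b and the Pgam1 site are followed by an A, and the Pfkfb3 site overlaps one for the miR-19 seed. The other members with a match were Bnip3, Pfkp, Pdha1, Egln1 and Pdk1. Ldhb and Hif1a, which were lower in rescue than in the libraries labelled CD28-/- and higher in T1792delta/delta than in wt, hold 1 and 2 matches. In the fit to all libraries Hif1a was not called in T1792tg/tg against wt at 24 h (means of 264 and 291 CPM). Egln3, which also holds 2 matches, went the other way at 24 h. It was higher in rescue than in the libraries labelled CD28-/-. In T1792delta/delta against wt it was not called with all libraries and was lower without replicate 2. Tbc1d4 and Pdk2 hold no match in this UTR. Yet Tbc1d4 was likewise lower in rescue than in the libraries labelled CD28-/- and higher in T1792delta/delta than in wt. Whether any difference came through these sites was not tested. A match is a description, and the absence of one says only that these letters are not in the UTR examined.

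Deletion of the cluster gave 13 higher members and 1 lower at 24 h against wt (16.2% of all tested genes called, 7.77% higher and 8.47% lower), but the count rests on the library that stood apart: without it, 7 were higher and 1 lower, 7 of them shared, at a background of 12.1%. Regulatory T cell markers summed to 702 to 817 CPM against 976 to 1005 CPM in wt (2 of 6 called lower), memory T cell markers to 462 to 590.5 against 539 to 634 CPM (3 of 8 lower) and red cell markers to 11.7 to 88.7 against 4.99 to 6.90 CPM (1 of 4 higher), and their part was not tested. The wt libraries are the same as in the T1792tg/tg comparison. Tbc1d4 was at 73.7, 53.6, 69.6 and 76.2 CPM, above all wt libraries, 0.57 ± 0.10 SE, adjusted p = 0.00011 with and 0.67 ± 0.09 SE, adjusted p = 5.9e-06 without replicate 2. Ldhb was at 37.0, 43.3, 38.8 and 41.4 CPM (0.37 ± 0.08 SE, adjusted p = 0.0016 and 0.33 ± 0.09 SE, adjusted p = 0.0092), and Hif1a at 392, 398, 329 and 347 CPM (0.33 ± 0.09 SE, adjusted p = 0.007 and 0.29 ± 0.09 SE, adjusted p = 0.032). These 3 genes kept their size when the library was left out.

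Another 4 members kept a call at a smaller or similar size, with replicate 2 and then without it: Slc16a3 1.12 and 0.49, Ppp1r3b 1.68 and 0.65, Aldoc 1.72 and 0.77, and Pgam1 0.30 and 0.23. The calls of Slc2a3, Pfkp, Tpi1, Pfkfb4, Bnip3, P4ha2 and Pdha1 were lost without it. With replicate 2 their log2 fold changes were Slc2a3 1.18, Pfkp 0.32, Tpi1 0.38, Pfkfb4 0.59, Bnip3 1.26, P4ha2 1.98 and Pdha1 -0.17, and without it Slc2a3 0.04, Pfkp 0.08, Tpi1 0.16, Pfkfb4 0.28, Bnip3 0.03, P4ha2 0.56 and Pdha1 -0.15, so that Slc2a3 and Bnip3 came close to 0, whereas Pdha1 kept about its size and P4ha2, at 2.36 to 2.96 CPM in the other 3 libraries, lay above wt at 1.64 to 1.95 CPM. A term for sex left 10 members higher and 1 lower, with Pfkp, Tpi1 and Bnip3 lost. Egln3 gained a call when replicate 2 was left out. It was not called with all libraries (0.13 ± 0.35 SE, adjusted p = 0.85), and without replicate 2 the other 3 libraries, at 12.2 to 13.2 CPM, were lower than wt at 24.0 to 33.1 CPM (-1.13 ± 0.18 SE, adjusted p = 4.1e-05). Ldha (0.05 ± 0.09 SE, adjusted p = 0.75) and Hk2 (0.08 ± 0.13 SE, adjusted p = 0.75) were not called. The stimulation response differed from wt for 3 members (6.1% of all tested genes called, 3.15% higher and 2.95% lower), P4ha2, Ppp1r3b and Pdk1 (P4ha2 1.96, Ppp1r3b 1.89 and Pdk1 0.54), and without replicate 2 for Ppp1r3b, Tbc1d4 and Egln3 (Ppp1r3b 0.86, Tbc1d4 0.45 and Egln3 -0.93). With all libraries but naive T1792delta/delta replicate 3, naive wt replicate 3 or 24 h wt replicate 3 that count was 1, and it was 5 without T1792delta/delta replicate 1 at 24 h and 7 without replicate 3 or 4.

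Before stimulation, the count of called members ran from 1 to 8 over the 4 comparisons. The libraries labelled CD28-/- differed from wt in 2 (14.8% of all tested genes called, 7.42% higher and 7.34% lower), Ldha higher (0.26 ± 0.09 SE, adjusted p = 0.047) and Pfkm lower (-0.31 ± 0.10 SE, adjusted p = 0.036), and both calls were lost without replicate 1 or 4 labelled CD28-/- or wt replicate 2 or 3. Without T1792delta/delta replicate 2 at 24 h, 4 were called, and without replicate 3 labelled CD28-/- 1. T1792delta/delta differed in Ldhb, at 46.4, 47.6, 48.5 and 47.2 CPM against 35.3, 33.1, 29.1 and 33.6 CPM (0.53 ± 0.08 SE, adjusted p = 5e-05, 5.19% of all tested genes called, 2.76% higher and 2.42% lower). That count was 2 without wt replicate 1 and 4 without T1792delta/delta replicate 2 at 24 h. Summed red cell markers were 1180 to 5078 CPM in naive T1792delta/delta and 314 to 953 CPM in naive wt. Myeloid markers summed to 240 to 349 CPM in naive T1792delta/delta and 161 to 213 CPM in naive wt, with 5 of 10 called higher and 0 lower. Regulatory T cell markers summed to 187.5 to 203.7 CPM in naive libraries labelled CD28-/- and 289 to 325 CPM in naive wt. Of these 6 markers, 4 were called lower and 1 higher. The part of these cell markers was not tested.

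Naive T1792tg/tg cells had 7 members lower and 1 higher than wt (23.1% of all tested genes called, 10.5% higher and 12.6% lower), so the share of members called lies near the background. Hif1a was at 174, 185, 167 and 169 CPM against 219, 259.7, 238 and 268 CPM (-0.50 ± 0.09 SE, adjusted p = 5.6e-05), and Slc2a1 at 52.0, 52.6, 54.9 and 43.9 CPM against 67.0, 79.3, 67.6 and 73.9 CPM (-0.50 ± 0.14 SE, adjusted p = 0.0068), without overlap. Pfkfb3 at 50.6, 57.2, 50.1 and 54.5 CPM and Pfkfb4 at 11.0, 9.92, 13.2 and 8.65 CPM were lower (Pfkfb3 -0.35 and Pfkfb4 -0.59), as were P4ha2, Ldhb and Tbc1d4 (P4ha2 -1.38, Ldhb -0.32 and Tbc1d4 -0.35). Pdk2 was higher (0.54 ± 0.16 SE, adjusted p = 0.015). Memory T cell markers summed to 368 to 424 CPM in naive T1792tg/tg and 264 to 282 CPM in naive wt, and their part was not tested. In naive rescue cells against the libraries labelled CD28-/-, Ldhb, Hif1a and Tbc1d4 were lower (Ldhb -0.38, Hif1a -0.43 and Tbc1d4 -0.41) and Pdk2 higher (0.94 ± 0.18 SE, adjusted p = 0.00027), 4 members in all at a background of 16.8% of all tested genes called, 7.84% higher and 8.92% lower, and 9 without T1792delta/delta replicate 2 at 24 h. Memory T cell markers summed to 383 to 456 CPM in naive rescue and 288 to 331 CPM in naive libraries labelled CD28-/-, and their part was not tested. These 4 genes were also called in naive T1792tg/tg against wt, and this pair of comparisons shares no library. The response of T1792tg/tg cells differed from wt for 8 members, 2 higher and 6 lower (16% of all tested genes called, 8.59% higher and 7.41% lower), among them Pdk2 -1.45, Tbc1d4 -0.91 and Slc2a1 0.55. That count was 4 or 5 when any 1 of 10 libraries was left out (naive T1792tg/tg 1 or 4, naive wt 2, 3 or 4, 24 h T1792tg/tg 3 or 4, 24 h wt 1, 2 or 4).

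Lists of neighbouring pathways give the setting. Stimulation of wt cells called 41.3% of all tested genes higher and 43.9% lower, and the counts of each list stand beside these shares. After stimulation of wt cells, 6 of 7 pentose phosphate genes were higher and 0 lower (Tkt 1.65 ± 0.08 SE, adjusted p = 5.9e-20), as were 5 of 7 genes of the pyruvate dehydrogenase complex with 2 lower (Dlat 1.68 ± 0.07 SE, adjusted p = 3.4e-21). Of 25 other hypoxia-induced genes, 10 were higher and 14 lower, Ak4 being higher by 6.93 ± 0.33 SE, adjusted p = 3.8e-20. Of the 13 tested genes of the oxygen sensing machinery, 5 were higher and 6 lower, with Epas1, which encodes HIF-2α, at -4.74 ± 0.22 SE, adjusted p = 8e-21. Txnip, an inhibitor of glucose uptake, fell (-4.96 ± 0.12 SE, adjusted p = 4.5e-28) and Myc, an inducer of glycolytic genes, rose (1.75 ± 0.09 SE, adjusted p = 3.7e-19).

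In the libraries labelled CD28-/- at 24 h, Txnip was higher than in wt (1.08 ± 0.11 SE, adjusted p = 2.9e-10) and Myc lower (-0.46 ± 0.09 SE, adjusted p = 4.4e-05). Over all tested genes, 23.7% were higher and 27.8% lower in this comparison. The pentose phosphate list had 0 higher and 3 lower of 7, the pyruvate dehydrogenase list 1 and 4 of 7, the other hypoxia-induced genes 5 and 9 of 25 (Vegfa -1.16 ± 0.28 SE, adjusted p = 0.00064, Ndrg1 1.28 ± 0.37 SE, adjusted p = 0.004), the oxygen sensing machinery 4 and 4 of 13 and the glycogen genes 5 and 2 of 11. In T1792delta/delta cells, 11 of the 25 other hypoxia-induced genes were higher than in wt at 24 h and 0 lower (7.77% of all tested genes higher). Without replicate 2, 2 of the 25 were higher and 0 lower, at a background of 6.29% higher.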

How the data were processed

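The values are deposited counts, whole numbers of reads for each gene that the authors left without normalization, in 38 libraries. Per the labels' protocols, RNA was taken from cells isolated with a naive CD4 T cell kit and read as single ends from stranded libraries. The submitters' processing notes name the build mm10 with STAR 2.5.2a, FastQC 0.11.5, edgeR 3.24.3 and R 3.5. What counted the reads, over which annotation, is not given in the sources used here. How reads of near-identical genes were counted is also not given, so Gapdh and Eno1 are uncertain. Where the labels do not tell, replicates may share a culture day, and no sequencing batch is stated.

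Symbols and coordinates came from a RefSeq table (23968 identifiers matched, the others held 0.0749% of counts). Groups came from the titles. Genes were filtered by edgeR's filterByExpr (13650 kept), library sizes scaled by TMM, and a quasi-likelihood model over the 10 groups fitted once to all 38 libraries with edgeR 4.0.16 in R 4.3.3. Each comparison was a two-sided contrast, a gene was called at a Benjamini-Hochberg adjusted p below 0.05 over all tested genes, and the standard error is the fold change divided by the root of its F statistic. CPM use the scaled totals and are relative to the sequenced RNA of a library. Family shares divide counts by the deposited gene length and were compared by exact permutation. On simulated counts for 24 h CD28-/- against wt (13536 genes), 89% of 1.5-fold and 95% of 2-fold changes were recovered, and 9 of 13336 unchanged genes were called. Changes were planted only in genes above a minimum mean count. The simulated spread followed the general trend over genes, with no library that stood apart. The recovery therefore does not cover members with few counts or with a spread widened by T1792delta/delta replicate 2.

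The members and lists were chosen with earlier results of these data known. Values per library are given for a fixed set of 18 members and for the members with the smallest p, and non-members were taken from the lists, at most 4 per list and comparison by smallest p. Replicate numbers of the titles pair naive and 24 h libraries of a genotype only by number. Within wt and T1792delta/delta all 4 pairs correlated above 0.1 in their deviations from the group means (r = 0.122 to 0.342 and 0.21 to 0.313). So did 3 of 4 pairs labelled CD28-/-, 2 of 4 in T1792tg/tg and 1 of 3 in rescue. The stimulation responses given above come from fits without pairs. Pairs entered only the alternative fit with a block within genotype and the paired test of family shares in wt. With the replicate number as a block within genotype, the stimulation response called 33 members in wt, 33 in T1792delta/delta, where Aldoc lost and Ppp1r3b gained its call, and the difference between these responses 2, with P4ha2 lost. In the other 3 genotypes this block called 31 members labelled CD28-/-, 36 in T1792tg/tg and 33 in rescue. Alternatives were DESeq2 1.42.0, its size factors, no filter or a minimum mean of 5 CPM, the compared groups alone, the replicate block, a term for sex, each library left out and, for shares, no division by length.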

Additional observations from a re-analysis of the deposited data

Results flagged for a closer look

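In each group of 4 libraries, the gap between an extreme library and its nearest neighbour was compared with the range of the group by Dixon's criterion at 95%. Of 304 combinations of a member and a group, 30 passed. Chance gives about 1 in 20, or 15.2, for independent combinations, but members of 1 library can vary together. Of the 30, 20 were in T1792delta/delta replicate 2 at 24 h. That this library stood apart was known beforehand, so its 20 are a description and not a test. In that library the levels were Slc2a1 236, Slc2a3 255, Gpi1 769, Pfkm 33.8, Aldoa 1783, Aldoc 14.7, Tpi1 1595, Gapdh 14.1, Pgk1 1034, Eno1 1060.0, Pkm 3052, Ldha 3587, Slc16a3 159, Egln1 212, Egln3 84.2, Bnip3 92.9, P4ha1 139.6, P4ha2 20.4, Ankrd37 26.5 and Ppp1r3b 22.3 CPM. The 10 others were Hk1 at 171 CPM in 24 h wt replicate 4, Gpi1 at 482 CPM in 24 h wt replicate 4, Aldoc at 1.44 CPM in 24 h wt replicate 3, Eno3 at 18.9 CPM in 24 h T1792tg/tg replicate 4, Slc16a3 at 23.9 CPM in 24 h T1792tg/tg replicate 1, Pdk1 at 116 CPM in 24 h T1792tg/tg replicate 4, Pdk2 at 10.9 CPM in 24 h labelled CD28-/- replicate 3, P4ha1 at 154 CPM in naive T1792tg/tg replicate 3, Mpc2 at 29.4 CPM in 24 h labelled CD28-/- replicate 3 and Tbc1d4 at 42.7 CPM in naive T1792tg/tg replicate 3.

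The stimulation response differed between genotypes by an interaction contrast of the edgeR quasi-likelihood fit for these members, given as differences of log2 responses. Between the libraries labelled CD28-/- and wt they were Hk2 -1.37, Pfkl -0.40, Pfkp -0.67, Tpi1 -0.87, Pgk1 -0.78, Pgam1 -0.48, Eno1 -0.96, Eno3 -0.74, Pkm -0.56, Ldha -1.21, Slc16a1 -0.78, Pdk2 2.50, Pfkfb4 1.27, Hif1a 0.72, Egln1 -0.45, Egln3 -1.96, P4ha2 -1.56, Mpc1 -0.60, Mpc2 -0.47, Pdha1 -0.65 and Tbc1d4 0.62. Between T1792delta/delta and wt they were Pdk1 0.54, P4ha2 1.96 and Ppp1r3b 1.89, where P4ha2 and Pdk1 were lost without replicate 2 at 24 h. Between T1792tg/tg and wt they were Slc2a1 0.55, Eno3 -0.56, Ldhb -0.33, Pdk2 -1.45, Pdk3 -0.30, Hif1a 0.36, Mpc2 -0.51 and Tbc1d4 -0.91, and between rescue and the libraries labelled CD28-/- they were Slc2a1 0.64, Slc16a1 0.52, Pdk2 -1.83 and Tbc1d4 -0.81.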

How the results depend on the processing

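Of the 4979 values of 291 gene results under the alternatives, 4738 kept their direction and side of the threshold, 240 kept only the direction or changed side, and 1 reversed: the response of Aldoc in T1792delta/delta was -0.245 without T1792delta/delta replicate 2 at 24 h (adjusted p = 0.24) and between that value and 0.944 over all fits that leave out 1 library. Fits without that library for comparisons that do not use it were chosen after seeing the data. With it left out, the counts of called members were 8 for T1792delta/delta, 11 for T1792tg/tg and 15 for rescue at 24 h, and in naive cells 4 for the libraries labelled CD28-/-, 4 for T1792delta/delta and 9 for rescue. With only the compared groups fitted, they were 8, 13 and 19 at 24 h, 0 for naive labelled CD28-/-, 2 for naive T1792delta/delta, and 0 and 9 for the differences in response of T1792delta/delta and rescue. In naive labelled CD28-/- cells 0 members were called without the filter and 1 at a mean of at least 5 CPM. For naive T1792delta/delta this minimum and DESeq2 each gave 2, and DESeq2 gave 5 for the difference in response of T1792delta/delta. Leaving out 1 library at a time gave 8 to 17 members for 24 h T1792delta/delta, 4 to 11 for T1792tg/tg and 8 to 15 for rescue against labelled CD28-/-, 0 to 4, 1 to 4 and 4 to 9 for naive labelled CD28-/-, T1792delta/delta and rescue, and 1 to 7, 4 to 11 and 2 to 8 for the differences in response of T1792delta/delta, T1792tg/tg and rescue. The cause of these changes in count was not tested. For most of these fits the share of all tested genes called is not printed. Their counts alone therefore show no change particular to the members.

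With the replicate number as a block over all groups the counts at 24 h were 27 for labelled CD28-/-, 12 for T1792delta/delta, 7 for T1792tg/tg and 10 for rescue, and with the block within genotype 23 for the difference in response of labelled CD28-/-. Each library was also compared with those of its genotype in the other state, 4 candidates or 3 in rescue. Among these, 32 of 38 libraries correlated best with the library of their own number. The counts for stimulation in each genotype and for labelled CD28-/- at 24 h stayed within 1.5 times under all alternatives run. Family shares with 4 libraries against 3 cannot pass, since the smallest p is 0.057. Taking the wt libraries as pairs, 0 of the 10 family shares passed between naive and 24 h (chosen after seeing the data), since 4 pairs cannot give an exact p below 0.125. Depth limits members with few counts: Aldoc, at most 2.0 CPM in 24 h wt, and P4ha2 had standard errors of 0.35 and 0.42 in the response of wt.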
